A study of Caenorhabditis elegans with 18 samples.

Results

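Worms fed RNAi bacteria against ints-4 were compared with worms fed RNAi bacteria against numr-1/2, neither of them exposed to cadmium. The aim was to see where the transcriptomes of these 2 groups, called the knockdowns here after their labels, differ. The comparison takes 6 of the 18 libraries of the series: 3 of ints-4(RNAi) and 3 of numr-1/2(RNAi), chosen by their labels alone. The 3 control(RNAi) libraries without cadmium are given as the background of both knockdowns. All 9 are whole animals of the wild-type strain N2, fed bacteria that make double-stranded RNA from hatching through the larval stages, with the same plates without metal in all 3 groups. ints-4(RNAi) bacteria target W04A4.5, the gene for integrator subunit 4. numr-1/2(RNAi) bacteria target numr-1 and its identical copy numr-2 (the labels name numr-1 only), and control(RNAi) bacteria carry the empty vector pPD129.36. Worms were late L4 to young adult according to the methods and gravid young adults according to the submitters' notes, and the labels give 3 biological replicates a group. RNAi by feeding lowers a transcript rather than removing it and works less well in neurons, so that any knockdown here is partial and over a mixed set of tissues.

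Integrator is a multi-subunit complex that associates with RNA polymerase II and cuts the 3′ ends of small nuclear RNAs (snRNAs), the RNA parts of the spliceosome. snRNA transcripts that are not cut can be extended past the end of the gene and acquire a poly(A) tail, and only tailed RNA is kept by the oligo(dT) selection used here. NUMR-1 and NUMR-2 are nuclear proteins with similarity to SR proteins, a family of splicing factors, and their genes are induced by metals. Small changes in the 3′ splice site chosen, a few bases apart, are common in C. elegans and differ between the germline and the other tissues.

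Expression was deposited as 1 normalized value per gene and group, the mean of 3 libraries. The difference between the knockdowns was taken as log2 (ints-4(RNAi) over control) minus log2 (numr-1/2(RNAi) over control), each within its own table, and is called the log2 difference here. Each group stands in a pair of tables with different scaling, from which the whole reads of each library were recovered for 47020 of 47020 genes. These reads are given per library, as reads or as CPM (reads scaled to a common depth by the median of ratios over the 9 libraries), and were tested with limma, a choice made after the data were seen. A gene is called here at an adjusted p below 0.05 and a change of at least 2-fold in limma.

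The 9 libraries held 34604859 to 40521063 reads. ints-4(RNAi) libraries had a read for 21701 to 22002 genes, numr-1/2(RNAi) libraries for 18459 to 19513 and control(RNAi) libraries for 18746 to 18878. Genes of the mitochondrial DNA took 0.272% of the reads in ints-4(RNAi) replicate 3 and 1.96 to 3.32% in the other 8 libraries, and all 14 tested mitochondrial genes were lowest in that replicate. None of the 14 was called by limma (0 at an unadjusted p below 0.05). Counts of calls without this replicate are given beside the main results.

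ints-4 itself had 18.8, 16.2 and 18.8 CPM in ints-4(RNAi) worms, against 46.8, 41.9 and 35.8 CPM in numr-1/2(RNAi) worms and 36.8, 39.9 and 46.6 CPM in control(RNAi) worms. The 3 ints-4(RNAi) libraries lay below the other 6, with a limma log2 change of -1.20 ± 0.12 (SE, adjusted p = 9.39e-06). The targeted gene therefore matched the ints-4(RNAi) labels and was reduced in part. The targets of numr-1/2(RNAi) did not bear out that label. numr-1 had 3, 3 and 0 reads in numr-1/2(RNAi) libraries and 1, 5 and 3 reads in control(RNAi) libraries, and both copies together had 29, 46 and 19 reads in numr-1/2(RNAi) libraries, against 24, 44 and 12 in control(RNAi) libraries. The sum of 0.848 ± 0.361 CPM in numr-1/2(RNAi) was not below the 0.758 ± 0.504 CPM in control(RNAi) (SD, n = 3 each, exact two-sided permutation p = 0.8, the smallest possible being 0.1). No reduction of the targets was seen at these few reads, so numr-1/2(RNAi) stands throughout for the libraries labelled so, also in every direction given against them.

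numr-1 (WBGene00017270, chromosome III, 7362619 to 7363464, minus strand) had 242, 310 and 223 reads in ints-4(RNAi) libraries. numr-2 (WBGene00017267, chromosome III, 7364385 to 7365230, plus strand) had 271, 239 and 231 reads in ints-4(RNAi) libraries, against 26, 43 and 19 reads in numr-1/2(RNAi) libraries and 23, 39 and 9 in control(RNAi) libraries. Both genes were higher in every ints-4(RNAi) library than in any of the other 6. The limma log2 change was 7.13 ± 0.75 for numr-1 (SE, adjusted p = 1.62e-05) and 3.13 ± 0.27 for numr-2 (SE, adjusted p = 3.51e-06). The annotation names both loci numr-1, and they are told apart here by gene ID. Reads of identical copies may have been split between them or left out, so the level of either copy is uncertain. Coordinates of genes are those of WBcel235.

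By the log2 difference, 3480 of 18479 genes were at least 2-fold higher in ints-4(RNAi) than in numr-1/2(RNAi) worms (18.8%) and 2025 were at least 2-fold lower (11%). Genes with a value of 0 in 1 or more of the 6 groups have no log2 difference here. In limma, 2897 of 16598 tested genes were called higher (17.5%) and 1656 lower (9.98%), and 60.3% of tested genes passed an adjusted p below 0.05 at any fold. The filter on low reads was the same for both knockdowns. Of 14147 protein-coding genes with at least 10 reads in every numr-1/2(RNAi) library, 1636 were called higher (11.6%) and 1588 lower. Of the other 1185 tested protein-coding genes, 776 were called higher. This split goes by reads in numr-1/2(RNAi) alone, so it sets apart genes low there and keeps those low in ints-4(RNAi). It therefore cannot say if the filter adds to the excess of higher calls. Without ints-4(RNAi) replicate 3, limma called 2892 higher and 1533 lower.

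The snRNA genes were near 0 in both other groups and well read in ints-4(RNAi) worms. Of 129 annotated snRNA genes, 58 had a read in any ints-4(RNAi) library, against 16 in numr-1/2(RNAi) and 15 in control(RNAi) libraries. Their summed reads were 13185, 11801 and 12052 in ints-4(RNAi) libraries, against 17, 11 and 18 in numr-1/2(RNAi) libraries and 13, 29 and 35 in control(RNAi) libraries. In scaled terms the sum was 802-fold higher in ints-4(RNAi). All 31 snRNA genes with enough reads to test were called higher and 0 were called lower, and 24 of them had 0 reads in every numr-1/2(RNAi) library. Set against a floor of 3 reads over that group, these 24 were at least 15.4-fold to at least 1127-fold higher in ints-4(RNAi) worms. A gene passed the filter on low reads only through its ints-4(RNAi) libraries, so the share called follows in part from the filter. A further 63 snRNA genes had 0 reads in all 9 libraries, and many snRNA genes are near-identical copies whose reads cannot be placed on 1 copy, so the level of a single gene is uncertain.

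C47F8.9 (WBGene00014405, chromosome I, 12285746 to 12285932, plus strand) took the most reads, with 3450, 3343 and 3310 in ints-4(RNAi) libraries, against 0, 0 and 1 in numr-1/2(RNAi) libraries and 1, 2 and 0 in control(RNAi) libraries. F40G12.14 (chromosome V, 14277574 to 14277738, plus strand) had 2964, 2390 and 2810 reads in ints-4(RNAi) libraries, against 2, 0 and 0 in numr-1/2(RNAi) libraries and 0 in each control(RNAi) library. These and the next gene held 58.5% of the snRNA reads of ints-4(RNAi), so the signal was concentrated in a few genes. The next was sls-2.12 (chromosome IV, 5261913 to 5262022, plus strand), an SL2 RNA gene, with 1283, 1062 and 1046 reads in ints-4(RNAi) libraries and 0 in each numr-1/2(RNAi) and control(RNAi) library, at least 1127-fold higher than numr-1/2(RNAi).

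SL2 RNA is trans-spliced onto the downstream messages of operons, and 7 of the 18 sls-2 genes were tested and called higher. Together the sls-2 genes had 3023, 2455 and 2212 reads in ints-4(RNAi) libraries, against 0, 0 and 4 in numr-1/2(RNAi) libraries and 0, 0 and 3 in control(RNAi) libraries. The sls-1 genes, which make the SL1 leader, had fewer reads: 152, 173 and 183 in ints-4(RNAi) libraries and 0 in each of the other 6. SmY RNAs are small nuclear RNAs of nematodes that take part in trans-splicing, and 5 of the 10 smy genes were tested and called higher. smy-1 had 865, 802 and 848 reads in ints-4(RNAi) libraries, against 0, 0 and 2 in numr-1/2(RNAi) libraries and 4, 2 and 0 in control(RNAi) libraries (limma log2 change 9.94 ± 0.58 SE, adjusted p = 2.08e-07). The ints-4(RNAi) libraries agreed closely for most of these genes, and sls-2.17 was the exception with 337, 273 and 43 reads.

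**Figure D1:**
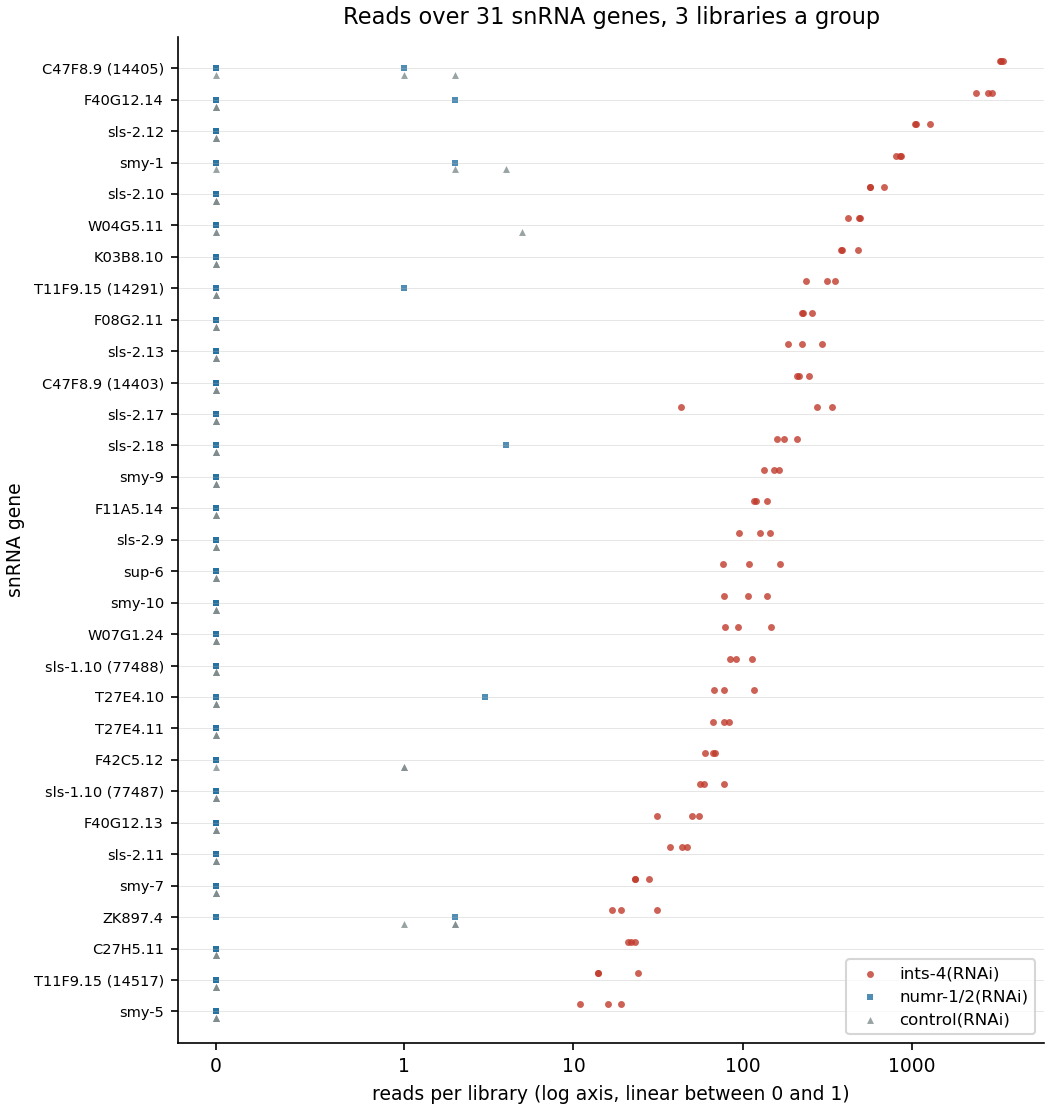
Reads per library (log axis, linear between 0 and 1) over the 31 tested snRNA genes, 1 gene a row, with 3 points for each of ints-4(RNAi), numr-1/2(RNAi) and control(RNAi); the digits in brackets are the end of the gene ID where genes share a name. Every ints-4(RNAi) point lies to the right of the points of both other groups, which reach at most 4 reads in numr-1/2(RNAi) and 5 in control(RNAi).

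Several protein-coding genes that follow an snRNA gene were also higher in ints-4(RNAi) worms. Of 13 tested genes that lie within 1000 bases after an snRNA gene on the same strand, 11 were called higher and 0 lower. Over all 15332 tested protein-coding genes, 15.7% were called higher. Of the 11, 6 had fewer than 10 reads in every numr-1/2(RNAi) and control(RNAi) library and passed the filter on low reads only through ints-4(RNAi), so their share follows in part from the filter. The other 7 of the 13 had at least 10 reads in every numr-1/2(RNAi) library, and 5 of them were called higher, against 1636 of 14147 protein-coding genes with as many reads (11.6%). Within 2000 bases 16 of 22 were called higher and 1 lower, and within 5000 bases 30 of 53 were higher and 3 lower. On the strand opposite to the snRNA gene, 15 of 30 genes within 1000 bases were called higher and 4 lower. Some of these 15, such as ZK1248.17 and K03B8.14, also passed the filter only through ints-4(RNAi), as did T11F9.22 and W04G5.7 in the wider same-strand windows. Others were not above control(RNAi): dpy-2 had 4835, 5316 and 4667 reads in ints-4(RNAi) libraries, 793, 823 and 797 in numr-1/2(RNAi) libraries and 6123, 4482 and 5746 in control(RNAi) libraries. No source used here says if strand was taken into account in counting, so reads of overlapping transcripts from the other strand cannot be told apart from those of the gene. The windows were chosen after values of these genes had been seen.

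W04G5.8 lies 295 bases after the snRNA gene W04G5.11 on the same strand and had 2433, 2276 and 2390 reads in ints-4(RNAi) libraries, against 9, 6 and 1 in numr-1/2(RNAi) libraries and 3, 4 and 2 in control(RNAi) libraries. F56H6.2, 596 bases after C47F8.9 (WBGene00014405), had 1794, 1551 and 1908 reads in ints-4(RNAi) libraries, against 2, 1 and 6 in numr-1/2(RNAi) libraries and 0, 6 and 6 in control(RNAi) libraries. These genes were thus near 0 in both other groups and well read in all 3 ints-4(RNAi) libraries. The histone H3 gene his-42, 608 bases after C47F8.9 (WBGene00014311), had 758, 580 and 649 reads in ints-4(RNAi) libraries, against 0 in each numr-1/2(RNAi) library and 0, 1 and 0 in control(RNAi) libraries, at least 660-fold higher than numr-1/2(RNAi). H41C03.3, 803 bases after sls-2.1, was already expressed and had 10842, 9962 and 11309 reads in ints-4(RNAi) libraries, against 685, 786 and 766 in numr-1/2(RNAi) libraries and 531, 482 and 438 in control(RNAi) libraries. The 2 genes of the 13 that were not called were ZK1251.3, with a limma log2 change of -0.31, and eif-2Bgamma, a subunit of a translation initiation factor, with -0.27. Some called genes follow an snRNA gene with few or no reads: WBGene00014311, upstream of his-42, had 0 reads in all 9 libraries and sls-2.1 had 0, 2 and 0 in ints-4(RNAi) libraries. Reads of near-identical copies cannot be placed on 1 copy, so 0 reads do not show that such a gene made no transcript.

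**Figure D2:**
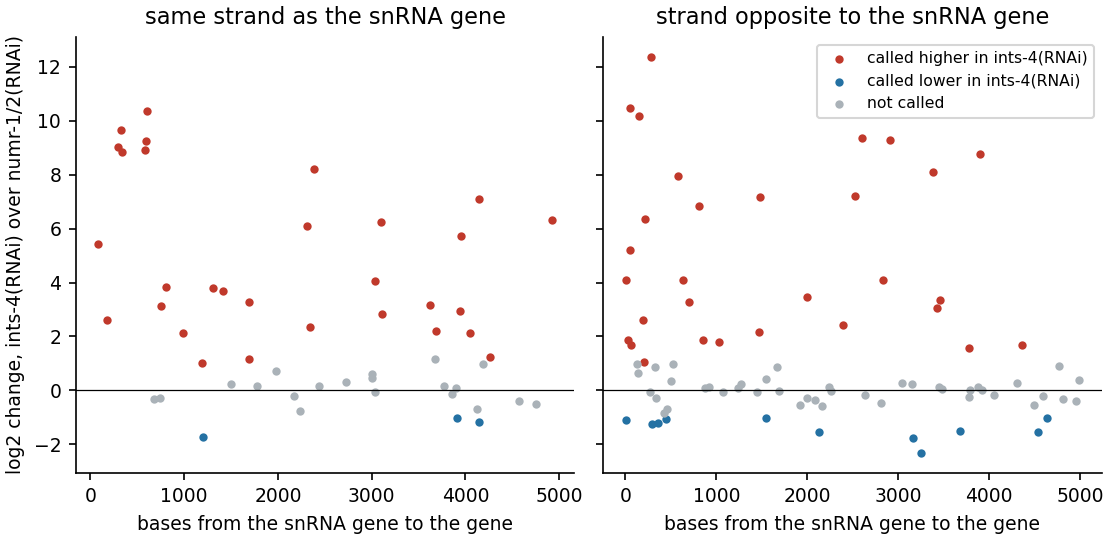
Limma log2 change (ints-4(RNAi) over numr-1/2(RNAi)) of tested protein-coding genes against the distance in bases from the end of the snRNA gene before them, for genes on the same strand (left) and on the opposite strand (right); each point is a gene after an snRNA gene. Within 1000 bases on the same strand 11 of 13 genes are called higher, 6 of them with fewer than 10 reads in every library of the other groups.

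Other small and non-coding RNAs that the oligo(dT) selection should mostly leave out were also called higher. Of tested genes, 29 of 51 snoRNA genes, 20 of 22 piRNA genes and 8 of 8 miRNA genes were called higher and 0 of each lower. These counts follow in part from the filter, since most of the called genes passed it only through ints-4(RNAi): of the genes with at least 10 reads in every numr-1/2(RNAi) library, 0 of 17 snoRNA genes, 0 of 1 piRNA gene and 1 of 1 miRNA gene were called higher by limma. Reads summed over snoRNA genes were 11620 to 13570 in ints-4(RNAi) libraries, 3170 to 4170 in numr-1/2(RNAi) libraries and 3826 to 5301 in control(RNAi) libraries. For piRNA genes the sums were 1501 to 2823 in ints-4(RNAi), 244 to 374 in numr-1/2(RNAi) and 433 to 587 in control(RNAi) libraries. Many of these short genes lie inside others, and reads of overlapping genes cannot be told apart. Of 72 histone genes 39 were tested, and 14 of these were called higher and 1 lower, against 17.5% and 9.98% of all tested genes. Of the 14, 3 lie within 5000 bases after an annotated snRNA gene on either strand: his-42, his-14 and his-9. These 3 passed the filter on low reads only through ints-4(RNAi), so the histone count follows in part from the filter.

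The other integrator subunits were not called. Of 12 listed subunits 0 were called higher and 1, ints-4, lower. ints-5 had 50.9, 50.4 and 57.0 CPM in ints-4(RNAi) libraries, against 33.7, 35.98 and 29.7 CPM in numr-1/2(RNAi) libraries (limma log2 change 0.68 ± 0.10 SE, adjusted p = 1.30e-04), the clearest difference below 2-fold. ints-8 was likewise higher by 0.48 ± 0.09 (SE, adjusted p = 9.07e-04). phf-30 lay in the other direction, at -0.61 ± 0.11 (SE, adjusted p = 7.43e-04).

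Few protein components of the splicing machinery were called at 2-fold. At any fold, 12 of 20 genes of 3′ splice site recognition, 12 of 15 Sm and LSm genes and 14 of 24 U snRNP protein genes passed an adjusted p below 0.05 in limma. Over all tested genes 60.3% did. The Sm and LSm genes summed to 993 to 1030 CPM in ints-4(RNAi), 801 to 928 CPM in numr-1/2(RNAi) and 543 to 737 CPM in control(RNAi) libraries. Of 20 listed genes of 3′ splice site recognition 0 were called by limma (14 at an unadjusted p below 0.05), of 15 Sm and LSm genes only lsm-1 was called (lower), and of 24 U snRNP protein genes 2 were called higher. eftu-2, a GTPase of the U5 snRNP, had 311, 302 and 359 CPM in ints-4(RNAi) libraries, against 157, 150 and 139 CPM in numr-1/2(RNAi) libraries and 157, 181 and 209 CPM in control(RNAi) libraries (limma log2 change 1.13 ± 0.09 SE, adjusted p = 2.17e-06). The second was snrp-200, a helicase of the same particle, with a limma log2 change of 1.02. Among 12 SR and SR-like genes numr-1 and numr-2 were called higher and 0 lower. Of 25 tissue-specific splicing regulators, sym-2 (an hnRNP F/H homologue) and unc-75 (a neuronal CELF protein) were called higher and gld-1 (a germline STAR protein) lower. sym-2 had 74.6, 69.7 and 79.7 CPM in ints-4(RNAi) libraries, against 17.4, 17.9 and 15.6 CPM in numr-1/2(RNAi) libraries and 55.6, 58.8 and 69.97 CPM in control(RNAi) libraries. For sym-2 the numr-1/2(RNAi) libraries were thus the ones that stood apart from control(RNAi).

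Among the protein-coding genes with the highest log2 differences, the ints-4(RNAi) libraries stood apart and the other groups were both low. C17G10.6 had 218, 194 and 139 CPM in ints-4(RNAi) libraries, against 0.37, 0.189 and 0.281 CPM in numr-1/2(RNAi) libraries, a log2 difference of 9.34. cng-1, a subunit of a cyclic nucleotide-gated channel, had 226, 235.4 and 213 CPM in ints-4(RNAi) libraries, against 0.688, 0.676 and 0.45 CPM in numr-1/2(RNAi) libraries and 0.311, 0.599 and 0.252 CPM in control(RNAi) libraries (log2 difference 8.52). The P-glycoprotein gene pgp-8 followed with a log2 difference of 8.13, and eol-1, a homologue of the human decapping exonuclease DXO, with 7.41. The remaining 6 of the top 10 were C08D8.1, F26F2.1, F59B1.10, K04H8.3, Y105C5A.13 and B0507.8, at 6.44 to 8.04.

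Heat shock genes differed at the small heat shock proteins. Of 28 tested cytosolic heat shock genes 8 were called higher in ints-4(RNAi) worms and 0 lower, all 8 of them genes of small heat shock proteins, which hold unfolded proteins in solution. Over all tested genes, 17.5% were called higher. Both genes named hsp-16.48 passed the filter on low reads only through ints-4(RNAi), so the count follows in part from the filter. Their reads in numr-1/2(RNAi) libraries were 3, 1 and 1 (WBGene00002019) and 3, 4 and 5 (WBGene00002020). hsp-16.41 had 10.9, 9.33 and 9.50 CPM in ints-4(RNAi) libraries, against 2.14, 1.76 and 2.45 CPM in numr-1/2(RNAi) libraries and 3.55, 3.35 and 2.80 CPM in control(RNAi) libraries (limma log2 change 2.24 ± 0.17 SE, adjusted p = 1.67e-06). hsp-12.3 had 22.8, 20.7 and 22.2 CPM in ints-4(RNAi) libraries, against 5.24, 5.89 and 7.14 CPM in numr-1/2(RNAi) libraries and 9.46, 11.5 and 7.65 CPM in control(RNAi) libraries (limma log2 change 1.87 ± 0.13 SE, adjusted p = 6.02e-07). Both rose without overlap in ints-4(RNAi) and stayed at a low level. The sum over the 28 genes moved the other way, with 5638 to 5756 CPM in ints-4(RNAi), 6512 to 6579 CPM in numr-1/2(RNAi) and 5902 to 6174 CPM in control(RNAi) libraries. Of the 8 called genes, 5 lie within 5000 bases after an annotated snRNA gene on either strand, as do 6 of the 28 tested. They are hsp-12.3 and hsp-12.6 after F38E11.11 (WBGene00014366), and hsp-16.1 (WBGene00002017) and both genes named hsp-16.48 after T27E4.22, and both of these snRNA genes had 0 reads in all 9 libraries. Reads of near-identical snRNA copies may have been left out, so 0 reads do not show that these genes made no transcript. The part of these positions in the heat shock values was not tested.

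Of the genes of the protein-folding response of the endoplasmic reticulum, 3 of 17 were called higher and 0 lower, a share close to the 17.5% of all tested genes. dnj-27, a chaperone of that compartment, had 96.9, 109 and 111 CPM in ints-4(RNAi) libraries, against 28.2, 31.4 and 28.1 CPM in numr-1/2(RNAi) libraries and 72.4, 82.2 and 91.3 CPM in control(RNAi) libraries. The low numr-1/2(RNAi) values made most of that difference. Of the 11 genes listed for the unfolded protein response of mitochondria 0 were called by limma at 2-fold (10 at an unadjusted p below 0.05), although hsp-60 was lower in ints-4(RNAi) by a limma log2 change of -0.98 ± 0.11 (SE, adjusted p = 1.98e-05). Of the metal response list, which holds numr-1 and numr-2, 4 of 16 were called higher and 3 lower. The metallothionein gene mtl-2 had 289, 360 and 333 CPM in ints-4(RNAi) libraries, against 872, 665 and 920 CPM in numr-1/2(RNAi) libraries and 457, 378 and 242 CPM in control(RNAi) libraries (limma log2 change -1.31 ± 0.13 SE, adjusted p = 1.01e-05). hizr-1, the nuclear receptor that senses zinc, was lower as well (-2.57 ± 0.26 SE, adjusted p = 1.26e-05), with ints-4(RNAi) below both other groups.

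Infection-response and detoxification genes moved in both directions. The shares over all tested genes were 17.5% called higher and 9.98% called lower. Members with few reads in numr-1/2(RNAi) could pass the filter on low reads through ints-4(RNAi) alone, so these counts may follow in part from it. pals genes, many of which respond to intracellular infection, were called higher in 25 of 34 cases and lower in 2, with a median log2 difference of 3.47 over 31 members. Their sum was 174 to 187 CPM in ints-4(RNAi), against 40.3 to 46.3 CPM in numr-1/2(RNAi) and 41.7 to 47.6 CPM in control(RNAi) libraries. pals-14 had 11.1, 10.6 and 11.85 CPM in ints-4(RNAi) libraries, against 0.714, 0.568 and 0.647 CPM in numr-1/2(RNAi) libraries and 0.777, 0.718 and 0.952 CPM in control(RNAi) libraries. F-box genes of the fbxa family were called higher in 42 of 125 cases and lower in 7. fbxa-163 had the highest log2 difference of its family, 7.68, with 49.3, 44.9 and 53.2 CPM in ints-4(RNAi) libraries, against 0.0794, 0.27 and 0.366 CPM in numr-1/2(RNAi) libraries. Of 48 lysozyme and infection-response genes 19 were higher and 7 lower, and of 133 C-type lectin genes 49 were higher and 27 lower. The lysozyme gene lys-2 had 920, 985 and 902 CPM in ints-4(RNAi) libraries, against 137, 146 and 152 CPM in numr-1/2(RNAi) libraries and 171, 207 and 198 CPM in control(RNAi) libraries (limma log2 change 2.70 ± 0.08 SE, adjusted p = 4.06e-09).

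Of 41 tested glutathione S-transferase genes 12 were called higher and 4 lower, against 17.5% and 9.98% of all tested genes. The share called lower was close to that of all tested genes. gst-24 had 89.2, 102 and 103.7 CPM in ints-4(RNAi) libraries, against 2.75, 4.38 and 3.63 CPM in numr-1/2(RNAi) libraries and 7.83, 8.14 and 7.65 CPM in control(RNAi) libraries (limma log2 change 4.81 ± 0.16 SE, adjusted p = 5.73e-09), so that it was high in ints-4(RNAi) alone. Cytochrome P450 genes were called higher in 21 of 65 cases and lower in 13, and UDP-glucuronosyltransferase genes higher in 19 of 64 and lower in 16. cyp-35A5 was lower in ints-4(RNAi) by a limma log2 change of -4.22 ± 0.24 (SE, adjusted p = 1.89e-07). All 3 families had members in both directions at 2-fold or more.

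Genes of adult reproduction were lower in ints-4(RNAi) worms. The share called lower over all tested genes was 9.98%. All 6 vitellogenin genes, which code for the yolk proteins that the adult intestine makes for oocytes, were called lower in ints-4(RNAi) worms, with a median log2 difference of -5.48. Their sum was 488 to 540 CPM in ints-4(RNAi), against 7979 to 13178 CPM in numr-1/2(RNAi) and 2276 to 3223 CPM in control(RNAi) libraries. vit-3 had 2.59, 2.08 and 2.43 CPM in ints-4(RNAi) libraries, against 310, 271 and 243 CPM in numr-1/2(RNAi) libraries and 58.6, 56.5 and 68.4 CPM in control(RNAi) libraries (limma log2 change -6.84 ± 0.18 SE, adjusted p = 2.41e-09). ints-4(RNAi) lay below and numr-1/2(RNAi) above control(RNAi), with no overlap among the 3 groups. The lowest log2 difference of the named genes outside the lists was that of ule-3, a gene of the uterine lumen, with 0.414, 0.815 and 0.332 CPM in ints-4(RNAi) libraries, against 112, 118 and 108 CPM in numr-1/2(RNAi) libraries and 22.5, 14.5 and 11.3 CPM in control(RNAi) libraries (log2 difference -7.77).

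Of 40 germline and oocyte genes 29 were called lower and 0 higher, and of 66 sperm genes 32 were lower and 0 higher. Over all tested genes 9.98% were called lower. The early embryo list was mixed, with 6 of 13 tested genes called higher and 5 lower. perm-2, which the eggshell needs as a barrier, had 1.06, 1.46 and 1.19 CPM in ints-4(RNAi) libraries, against 58.9, 59.99 and 61.2 CPM in numr-1/2(RNAi) libraries and 14.4, 12.33 and 10.7 CPM in control(RNAi) libraries. puf-5, a translational regulator of late oocytes, had 31.1, 38.4 and 38.1 CPM in ints-4(RNAi) libraries, against 213, 226 and 201 CPM in numr-1/2(RNAi) libraries and 64.7, 87.3 and 63.4 CPM in control(RNAi) libraries. Summed over the germline and oocyte list, ints-4(RNAi) libraries had 3088 to 3331 CPM, numr-1/2(RNAi) libraries 7242 to 8478 CPM and control(RNAi) libraries 3554 to 4536 CPM. For the sperm list the sums were 3005 to 4916 CPM in ints-4(RNAi), 7131 to 9080 CPM in numr-1/2(RNAi) and 1678 to 4820 CPM in control(RNAi) libraries, so ints-4(RNAi) and control(RNAi) overlapped. In whole worms, fewer cells of a type and less RNA per cell cannot be told apart.

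Collagen genes and moulting genes differed in opposite directions. The shares over all tested genes were 17.5% called higher and 9.98% called lower, and the share of collagen genes called higher was close to the first. Of 151 tested collagen genes 87 were called lower and 27 higher, with a summed level of 35238 to 38509 CPM in ints-4(RNAi), 81733 to 99621 CPM in numr-1/2(RNAi) and 48286 to 70923 CPM in control(RNAi) libraries. col-19, a collagen of the adult cuticle, had 30.5, 44.9 and 21.4 CPM in ints-4(RNAi) libraries, against 1429, 1415 and 1660 CPM in numr-1/2(RNAi) libraries and 366, 281 and 204 CPM in control(RNAi) libraries (limma log2 change -5.59 ± 0.21 SE, adjusted p = 1.20e-08). Of 22 moulting and epidermal matrix genes 15 were called higher and 3 lower. mlt-11, a protease inhibitor needed for the moult, had 674, 727 and 843 CPM in ints-4(RNAi) libraries, against 103.2, 102.9 and 64.5 CPM in numr-1/2(RNAi) libraries and 612, 707 and 1194 CPM in control(RNAi) libraries. For mlt-11 ints-4(RNAi) and control(RNAi) overlapped and numr-1/2(RNAi) was low. fbn-1, a fibrillin-like matrix protein, had a log2 difference of 4.66 and dpy-6, a mucin-like cuticle protein, of 4.68. Of 11 heterochronic regulators, which time the larval stages, 4 were called higher (daf-12, hbl-1, lin-29 and mab-10) and 0 lower. mab-10, a cofactor of LIN-29, had 46.4, 43.4 and 50.5 CPM in ints-4(RNAi) libraries, against 14.5, 13.4 and 9.76 CPM in numr-1/2(RNAi) libraries and 40.9, 48.997 and 55.9 CPM in control(RNAi) libraries. Markers of adult reproduction and of the moult thus moved in opposite directions between the knockdowns, and the part of a difference in stage in the other results was not tested.

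Few body wall muscle, pharynx and ribosomal protein genes were called at 2-fold, and larger shares of intestinal and neuronal genes were. The median log2 difference gave another order for the intestine. It was -0.21 for intestinal, 0.32 for body wall muscle, 0.36 for pharynx and 0.68 for neuronal genes. Of 12 body wall muscle genes 1 was called, of 9 pharynx genes 0 (7 at an unadjusted p below 0.05 in limma) and of 82 cytosolic ribosomal protein genes 0 (14 at an unadjusted p below 0.05). Of 10 intestinal genes 3 were called lower, against 9.98% of all tested genes. Among them were the GATA factors elt-2, with a limma log2 change of -1.22 ± 0.10 (SE, adjusted p = 2.49e-06), and elt-7, with -2.29 ± 0.18 (SE, adjusted p = 2.26e-06). elt-2, the main regulator of intestinal genes, had 8.20, 7.92 and 7.87 CPM in ints-4(RNAi) libraries, against 18.9, 19.2 and 18.03 CPM in numr-1/2(RNAi) libraries and 21.2, 17.8 and 19.2 CPM in control(RNAi) libraries, and was low in ints-4(RNAi) alone. Neuropeptide genes were called higher in 21 of 57 cases and lower in 1, and 4 of 15 neuronal genes were higher, against 17.5% of all tested genes. The neuronal genes summed to 1293 to 1529 CPM in ints-4(RNAi), 678 to 701 CPM in numr-1/2(RNAi) and 1031 to 1322 CPM in control(RNAi) libraries. For that sum ints-4(RNAi) and control(RNAi) overlapped and numr-1/2(RNAi) was low. A single gene could differ from this order. unc-31, which dense-core vesicle release needs, had 45.2, 46.7 and 53.5 CPM in ints-4(RNAi) libraries, against 7.51, 6.03 and 2.84 CPM in numr-1/2(RNAi) libraries and 7.62, 10.9 and 14.03 CPM in control(RNAi) libraries. Unlike the neuronal sum, unc-31 was thus high in ints-4(RNAi) alone. Of 7 fatty acid desaturase genes fat-2, fat-3 and fat-4 were called higher, by limma log2 changes of 1.42, 1.45 and 1.02.

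**Figure D3:**
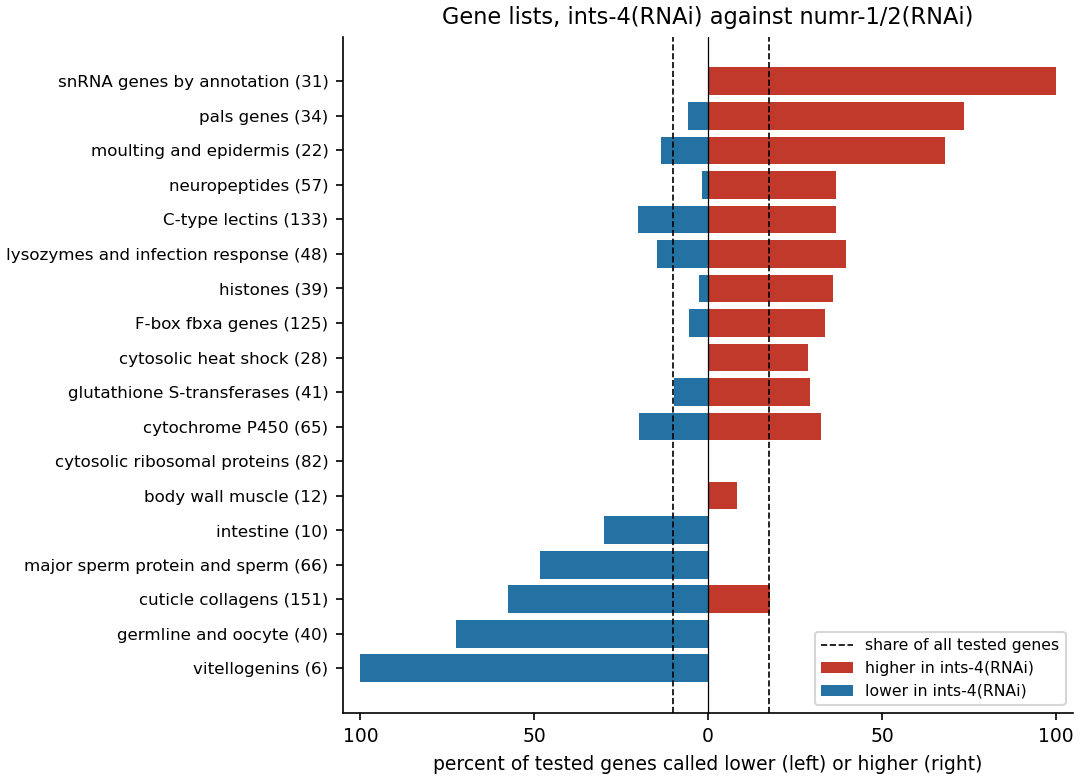
Percent of the tested genes of each list called higher (right, red) or lower (left, blue) in ints-4(RNAi) than in numr-1/2(RNAi) by limma, with the number of tested genes in brackets and dashed lines at the share of all tested genes (17.5% higher, 9.98% lower). snRNA, pals and moulting genes reach furthest to the right and vitellogenin, germline and collagen genes furthest to the left. All 31 tested snRNA genes passed the filter on low reads only through ints-4(RNAi), so their bar follows in part from the filter and is not comparable with the dashed line.

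Splicing was compared in the events that the deposited tables list for both knockdowns. Inclusion and skipping reads were read for 3201 of 3203 such events, and 2749 had at least 10 reads in every library of both groups. The reads were tested with a quasi-binomial model over the 6 libraries (adjusted p below 0.05 over all 2749). In all 293 events were called (10.7%), 86 with a higher inclusion level in ints-4(RNAi) (3.13%) and 207 with a lower one (7.53%), and 211 were called without ints-4(RNAi) replicate 3. The levels of the knockdowns did not overlap in 539 events (19.6%).

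Alternative 3′ splice sites made up 141 of the 293 called events, more than any other type. In these the level is the share of the upstream site, the one that gives the longer exon. Of 412 tested alternative 3′ splice sites 134 were called lower in ints-4(RNAi) (126 genes) and 7 higher, and levels did not overlap in 193. In the 134, the upstream site was used at a median of 23.98% in ints-4(RNAi), 47.9% in numr-1/2(RNAi) and 29.4% in control(RNAi) worms, with a median difference between the knockdowns of -20.3 percentage points. The control(RNAi) mean lay below that of numr-1/2(RNAi) in 134 of the 134 and above that of ints-4(RNAi) in 89. The result was carried by sites a few bases apart: 67 of 158 pairs exactly 6 bases apart were called lower (42.4%), 44 of 95 pairs 9 bases apart (46.3%) and 14 of 32 pairs 12 bases apart (43.8%). Of 29 pairs exactly 3 bases apart 2 were called higher and 0 lower, and of 57 pairs more than 18 bases apart 3 were higher and 0 lower. Both sites were annotated in WBcel235 in 399 of the 412 events. The direction held without each of the 6 libraries (107 to 134 called in all, 3 to 6 of them higher), but limma on the log2 ratio of reads called 24, all lower, and 24 of 172 were called, all lower, where only counts separated in the file were used. The germline and oocyte genes moved with this result (3088 to 3331 CPM in ints-4(RNAi), 7242 to 8478 CPM in numr-1/2(RNAi) and 3554 to 4536 CPM in control(RNAi) libraries, 29 of 40 called lower), and their part in it was not tested.

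**Figure D4:**
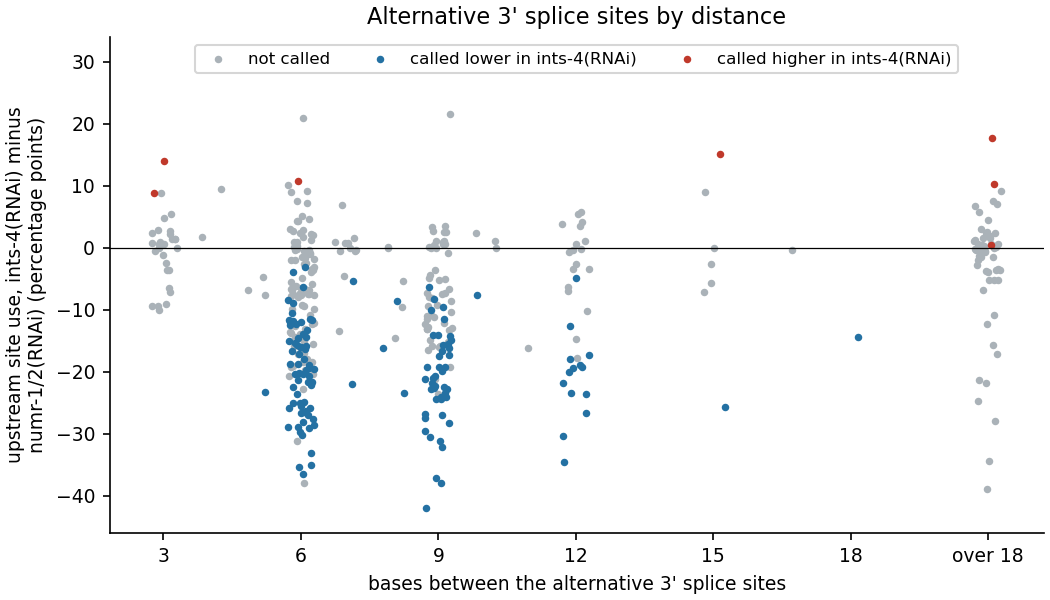
Difference in the use of the upstream site, ints-4(RNAi) minus numr-1/2(RNAi) in percentage points, against the bases between the alternative 3′ splice sites of 412 events, with points spread sideways at random within a distance and all distances over 18 put together. The 134 events called lower lie almost all at 6, 9 and 12 bases, and none lies at 3 bases or over 18.

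R02F2.1 (chromosome III, exon 5505248 to 5505401, plus strand) has 3′ splice sites 6 bases apart and had at least 1294 reads over the event in each library of the knockdowns. Its upstream site was used at 9.79, 12.4 and 9.50% in ints-4(RNAi) libraries, against 38.3, 35.9 and 36.7% in numr-1/2(RNAi) libraries and 19.8, 16.3 and 17.4% in control(RNAi) libraries. The 3 groups did not overlap, and the knockdowns differed by -26.4 percentage points (adjusted p = 9.84e-16, quasi-binomial test moderated by limma). syf-3, a spliceosome component related to crooked neck (chromosome V, exon 5941586 to 5941807, plus strand, sites 9 bases apart), was at 28.6, 23.3 and 31.9% in ints-4(RNAi) libraries, against 63.9, 69.3 and 62.3% in numr-1/2(RNAi) libraries and 43.5, 40.4 and 41.4% in control(RNAi) libraries (adjusted p = 1.21e-10). npp-10, a nucleoporin, was at 24.4, 21.5 and 25.2% in ints-4(RNAi) libraries, against 56.3, 68.0 and 56.5% in numr-1/2(RNAi) libraries and 42.6, 41.7 and 39.9% in control(RNAi) libraries (adjusted p = 2.94e-09). In both genes control(RNAi) lay between the knockdowns without overlap. wdr-48 (-37.96 points) and the APC-related gene apr-1 (-35.4 points) showed differences of like size from fewer reads. cdka-1, with sites 30 bases apart and as few as 13 reads in a library, differed by -28.0 points and was not called (adjusted p = 0.296).

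Among the genes of splicing and integrator themselves, 45 events of 33 genes were tested and 5 events of 4 genes were called. That is a share close to the 10.7% of all tested events. The upstream 3′ splice site of the integrator gene ints-2 (12 bases apart, chromosome V, exon 14190162 to 14190295, plus strand) was used at 45.5, 53.1 and 59.3% in ints-4(RNAi) libraries, against 81.6, 82.1 and 85.1% in numr-1/2(RNAi) libraries and 27.96, 65.9 and 60.7% in control(RNAi) libraries (adjusted p = 0.00328). ints-4(RNAi) overlapped control(RNAi) here and lay below numr-1/2(RNAi). The TDP-43 homologue tdp-1 (-19.3 points) and the RBM15-related gene grld-1 (-8.6 points) were called in the same direction. hrpa-1, the hnRNP A1 homologue, had 2 called skipped-exon events that share an exon to within 1 base, with +8.0 and +27.4 points.

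The other event types had no such direction. Of 1892 skipped exons 60 were called with higher and 47 with lower inclusion, of 145 mutually exclusive exons 13 higher and 9 lower, of 175 events at alternative 5′ splice sites 5 higher and 12 lower, and of 125 retained introns 1 higher and 5 lower. The exon of gfat-1, an enzyme of the hexosamine pathway (chromosome II, 11594594 to 11594632, minus strand), was included at 74.0, 68.4 and 69.1% in ints-4(RNAi) libraries, against 15.5, 16.5 and 20.3% in numr-1/2(RNAi) libraries and 46.1, 47.2 and 60.7% in control(RNAi) libraries (+53.1 points, adjusted p = 2.75e-08). An exon of the nonmuscle myosin gene nmy-1 was included at 34.2, 41.1 and 57.5% in ints-4(RNAi) libraries, against 4.18, 3.43 and 7.05% in numr-1/2(RNAi) libraries and 16.2, 19.7 and 11.86% in control(RNAi) libraries. In both genes the 3 groups kept apart, with control(RNAi) between the knockdowns. The FGF receptor gene egl-15 had the first of its mutually exclusive exons at 95.2, 96.4 and 96.4% in ints-4(RNAi) libraries, against 58.0, 37.9 and 38.7% in numr-1/2(RNAi) libraries and 83.4, 60.1 and 78.5% in control(RNAi) libraries (+51.1 points, adjusted p = 1.03e-06). Its alternative 5′ splice site was also called, at 6.37, 4.48 and 5.93% in ints-4(RNAi) libraries, against 45.1, 34.98 and 45.4% in numr-1/2(RNAi) libraries and 24.99, 18.7 and 23.1% in control(RNAi) libraries, from as few as 22 reads in a library.

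The best-read of the named mutually exclusive events was in F08B12.4, at 51.7, 51.4 and 51.2% in ints-4(RNAi) libraries, against 32.99, 34.6 and 32.9% in numr-1/2(RNAi) libraries and 35.1, 32.8 and 35.02% in control(RNAi) libraries (adjusted p = 3.23e-13). Here ints-4(RNAi) was the group that stood apart. lev-11, which codes for tropomyosin, was at 78.8, 74.3 and 80.9% in ints-4(RNAi) libraries, against 58.9, 56.2 and 61.1% in numr-1/2(RNAi) libraries and 63.4, 65.996 and 73.7% in control(RNAi) libraries (adjusted p = 5.33e-11). The V-ATPase subunit gene unc-32 (-18.5 points) and the homeodomain gene unc-62 (-27.3 points) were lower in ints-4(RNAi). Skipped exons of cdf-1, a zinc exporter (-43.7 points), hum-4, a myosin (-34.6 points), and nid-1, the basement membrane protein nidogen (-33.2 points), were lower as well. The only retained intron called higher was in the nuclear receptor gene nhr-46 (+9.4 points), at 0% in each numr-1/2(RNAi) library.

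**Figure D5:**
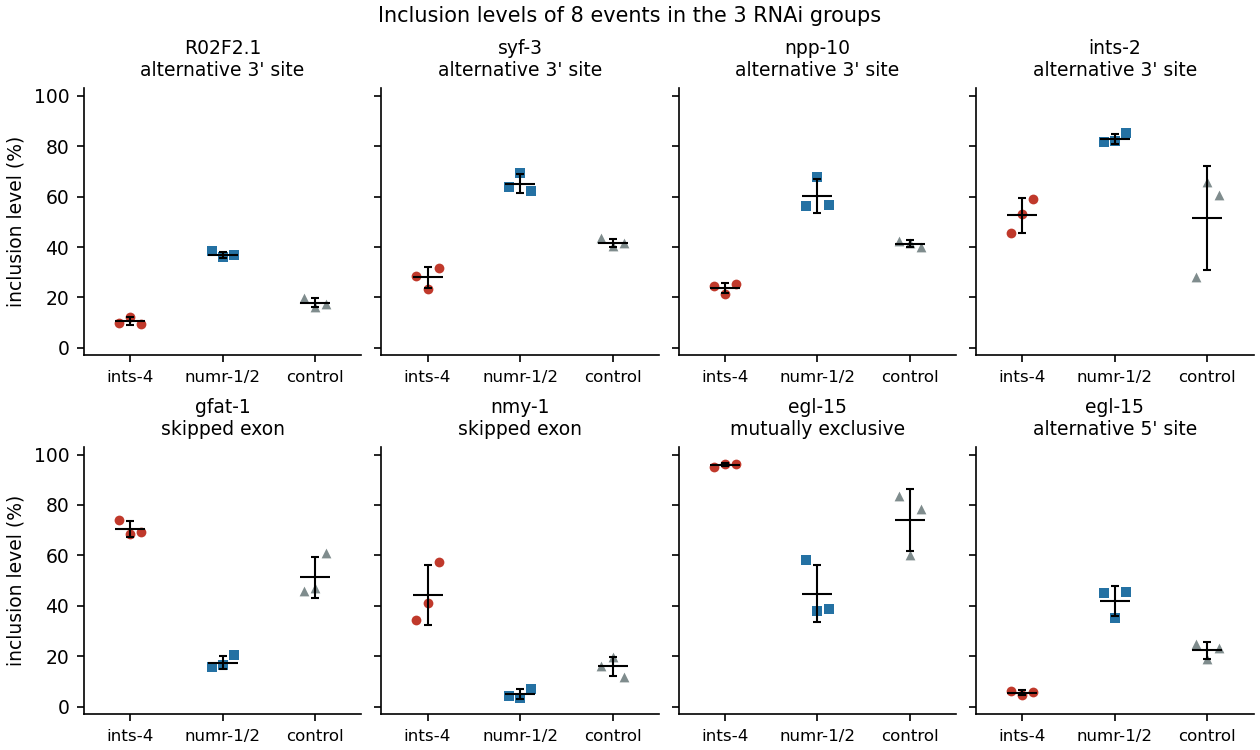
Inclusion level (%) of 8 named events in ints-4(RNAi), numr-1/2(RNAi) and control(RNAi), with 1 point per library, a bar at the mean and error bars of 1 SD (n = 3). In the alternative 3′ splice site events numr-1/2(RNAi) is highest, and control(RNAi) lies between the knockdowns in R02F2.1, syf-3 and npp-10 but overlaps ints-4(RNAi) in ints-2.

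Reads over the splicing events gave a second, smaller measure of expression per library. Of 1806 genes 271 were called higher in ints-4(RNAi) (15%) and 374 lower (20.7%) by limma at any fold (339 higher and 326 lower with median-of-ratios scaling), and 637 of these 645 had the same direction on the whole reads. The cuticle collagen gene col-98 led the higher genes, with 16853, 13272 and 15798 reads over its event in ints-4(RNAi) libraries, against 613, 859 and 727 in numr-1/2(RNAi) libraries and 3709, 2555 and 3816 in control(RNAi) libraries (log2 change 4.30 ± 0.13 SE, adjusted p = 3.01e-08). C09F9.2 and F19H8.2 were next (log2 changes of 3.85 and 3.64), then let-653, a zona pellucida protein of the epidermal surface, and mlt-11 (3.62 and 3.59). The hedgehog-related gene grd-6 was among the lowest, with 88, 68 and 79 reads in ints-4(RNAi) libraries, against 1197, 1108 and 794 in numr-1/2(RNAi) libraries and 423, 336 and 304 in control(RNAi) libraries (log2 change -3.78 ± 0.17 SE, adjusted p = 5.23e-07). col-98 therefore went against most collagens, and grd-6 belonged to a family that split evenly, with 19 of 68 tested hedgehog- and patched-related genes called higher and 19 lower on whole reads.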

How the data were processed

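RNA of 9 N2 samples (3 groups of 3) without cadmium was used. The submitters' notes name HISAT2 2.1.0 for alignment, HTSeq 0.6.1 for counting and Cufflinks 2.1.1. No genome build is given in the sources used here, and 95.2% of 16784 exon ends of the tested events are exon ends of WBcel235. The deposited expression values are a signal per gene and group, which the authors scaled within each table and averaged over 3 libraries. The authors' fold changes, p-values and FDR were not used. The deposited splicing counts are inclusion and skipping reads per library, counted for the authors by rMATS, and the deposited inclusion levels are fractions. Cells that had lost their commas were split by the level they must give: of 19617 pairs of cells, 8420 kept the commas, 7183 had a single split, 4001 had 1 split whose library totals lay within 4-fold, and 13 were left out (4 with several splits, 9 with none). All 6218 pairs that stand in a second table were equal.

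Whole reads per library were recovered from the group values in the tables that share a group, for 47020 genes with a relative tolerance of 4e-14. They were matched to the splicing replicates, numbered by their place in the cell, by correlation of gene levels. No count model was used, since the files hold joined text and group means and not a table of counts; instead, limma 3.58.1 (R 4.3.3) was used, with weights, on genes with at least 10 reads in at least 3 libraries. Events were fitted by a quasi-binomial model with dispersion moderated by limma, since 2 groups of 3 cannot go below an exact permutation p of 0.1 (two-sided). All p-values were adjusted over all features tested (Benjamini-Hochberg). A U snRNP list entry that named another gene was removed after the data were seen. Python 3.11.15 with pandas 2.3.3 and NumPy 2.4.6 did the rest. All tests across genes or events were tested on simulated data.

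The comparison, its gene lists and the rule for names were chosen with earlier results of these data known. Named genes are the targets and integrator subunits, the 10 highest and 10 lowest log2 differences with a group value of at least 100 in one knockdown and 10 in the other, and up to 4 members of each of 38 lists with the largest difference of at least 2-fold. Named events are the 12 called events with the largest differences, with no overlap and 20 reads or more in each library, up to 4 more of each type, and all tested events of splicing, integrator and study genes. Genes after an snRNA gene and those at 0 in both other groups were chosen after their values were seen. Alternatives were other filters, scalings, pseudocounts, tests, libraries in the fit, and each library left out.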

Additional observations from a re-analysis of the deposited data

Results flagged for a closer look

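A closer look is due at genes that the log2 difference leaves out because a group value is 0. In all, 187 genes had at least 10 reads in every ints-4(RNAi) library and 0 in all numr-1/2(RNAi) and control(RNAi) libraries, against 6 genes with at least 10 reads in every numr-1/2(RNAi) library and 0 in every ints-4(RNAi) library. Of the 187, 62 are protein-coding, 36 ncRNA, 22 snRNA, 15 piRNA, 15 pseudogene and 13 snoRNA genes, and 18 are not in the annotation used. ZK1248.17 had 2637, 2547 and 2782 reads in ints-4(RNAi) libraries, and lies 280 bases after sls-2.1 on the opposite strand. Of the 62 protein-coding genes 23 have names of the sr chemoreceptor families, such as sri-17, with 358, 306 and 320 reads in ints-4(RNAi) libraries.

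Among the 31 snRNA genes called higher, 29 have a value of 0 in at least 1 of the 6 groups of the series, so that they carry no log2 difference as it was taken here, although the deposited ints-4(RNAi) values from which the reads were recovered hold their signal.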

How the results depend on the processing

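The 293 called events became 89 (30 higher, 59 lower) with limma on the log2 ratio of reads and 56 of 787 tested where only counts separated in the file were used. The 141 called alternative 3′ splice sites became 24 under each of these. A 4-fold limit gave 2264 genes in place of 5505 and 3 lists with a median past it, in place of 6 at 2-fold. Without 1 library at a time, events called were 211 to 275, alternative 3′ splice sites 107 to 134, gene reads over events 460 to 717, genes at 2-fold 5352 to 5630, lists 6 to 7, and limma calls on whole reads 4425 to 4781 (4553 with all libraries, 4455 to 4574 with other scalings and weights). Median-of-ratios scaling turned the gene reads over events from 271 higher and 374 lower to 339 higher and 326 lower, with a median log2 change over all 1806 genes of 0.01 in place of -0.04. No other result reversed its direction under an alternative run. On simulated data the log2 ratio test recovered fewer changed events than the quasi-binomial test and made a larger share of false calls. The simulated events were drawn with a single spread estimated by the quasi-binomial model itself, which favours that test. They therefore cannot decide which of these tests is right for the real events. In simulated gene reads over events, limma also made more false calls than its threshold allows. Named events lost their call in 56 repeats and kept it in 442. No paired analysis was possible because the joined cells and the group values carry no replicate number that ties samples across groups. Depth limits genes with few reads: numr-1 and most snRNA genes are at or near 0 in numr-1/2(RNAi) and control(RNAi), where differences between those groups were not detectable. The targets of numr-1/2(RNAi) were not lower than in control(RNAi), whole worms mix tissues and stages, and splits of joined cells add uncertainty to events with many reads.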

Other observations

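A further 2 genes lower in ints-4(RNAi) had the order of groups seen for the vitellogenins. cht-3, a predicted chitinase, had 0.388, 0.45 and 0.387 CPM in ints-4(RNAi) libraries, against 31.3, 33.7 and 25.9 CPM in numr-1/2(RNAi) libraries and 7.13, 10.09 and 8.01 CPM in control(RNAi) libraries. ttr-14, of the transthyretin-like list, had 12.7, 19.3 and 13.7 CPM in ints-4(RNAi) libraries, against 387, 378 and 437 CPM in numr-1/2(RNAi) libraries and 187, 157 and 113 CPM in control(RNAi) libraries, while its family split evenly on whole reads (10 of 54 tested called higher, 10 lower). Each of the 2 genes was lowest in ints-4(RNAi) and highest in numr-1/2(RNAi), with control(RNAi) between them.

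The insulin-like gene ins-37 was high in ints-4(RNAi) alone, with 102.7, 111 and 93.5 CPM in ints-4(RNAi) libraries, against 12.7, 12.14 and 15.7 CPM in numr-1/2(RNAi) libraries and 10.4, 7.42 and 4.23 CPM in control(RNAi) libraries. The enzymes of propionate and branched-chain breakdown, acdh-1 and hach-1, were lower in ints-4(RNAi), by limma log2 changes of -1.01 ± 0.08 (SE, adjusted p = 2.01e-06) and -1.20 ± 0.08 (SE, adjusted p = 4.45e-07), out of 21 listed genes of which 0 were higher. These 2 of 21 are a share close to the 9.98% of all tested genes called lower.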
